A study of Rhodotorula toruloides with 18 samples.

Results

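A set of 100 genes of the oil-storing yeast Rhodotorula toruloides, out of 8484 genes measured, was high on cellobiose but not on succinate in the wild type. On cellobiose their log2 levels differed by less than 0.75 between the wild type and a strain with the gene cbr1 deleted. The median difference, deletion strain minus wild type, was -0.36, against 0.22 for all genes. The members were chosen from measured values, by a rule on 4 of the 6 groups of libraries. The name that goes with this rule is cellobiose-specific and independent of Cbr1. For the wild type, the rule itself set the cellobiose-specific part, in TPM as deposited. In the deletion strain 33 of the 100 genes also rose on succinate, against 6.79% of all genes tested, as described below. Because of these 33, the 100 genes are called members here, after the rule, and not cellobiose-specific genes. A test over all genes of whether the succinate response differed between the strains called 0 of 7938 genes. With 3 libraries a group, this does not show that the strains responded alike. The files and the RefSeq table supplied, which describes strain NP11, do not pair the identifiers with gene names: 0 of the 8484 identifiers matched any of its 8171 genes. Members are thus given by identifier, and no function or sequence is attached to any of them. The cbr1 transcript itself was not analysed here.

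Cellobiose is a disaccharide of glucose that is released when cellulose is broken down. Fungi use it by cleaving it to glucose with beta-glucosidases, outside the cell or after uptake through sugar transporters. Succinate is a dicarboxylic acid of the citric acid cycle, and cells that live on it have to make their sugars by gluconeogenesis. Carbon catabolite repression is the shutdown, by a preferred carbon source, of genes needed for other sources. The series title places the work in this field and refers to a transcription factor, without saying how it acts.

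Messenger RNA of strain IFO0880 was measured in the cbr1 deletion strain (genotype yku70::HygR cbr1::NatR) and in the wild type (yku70::HygR). Both strains thus carry a hygromycin cassette at yku70, a gene of the non-homologous end joining pathway whose loss eases targeted gene replacement, and neither is free of that mutation. The deletion strain has a nourseothricin cassette in addition, and the labels do not say how many independent deletion clones were used. Cells from overnight YPD cultures in exponential growth were washed and kept for 8 h in yeast nitrogen base with 1% cellobiose, 1% succinate or no carbon source. Each of the 6 groups had 3 libraries, described as biological triplicates. Values are TPM, transcript abundance per gene length as a share of a fixed total per library, so the number of reads behind a value is unknown. TPM is also a share of a library's mRNA, so that fewer expressing cells, less of the transcript per cell and more of other transcripts cannot be told apart.

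Some libraries stood apart. The median TPM of all genes was 13.9 in wild type succinate replicate 3, against 20.7 and 21.1 in the other 2 libraries of that group. It was 18.9 in wild type replicate 3 without carbon, against 33.1 and 36.9. Replicate 3 was also the lowest library of the deletion strain in both of these media. The median log2 difference over all 7938 genes tested was -0.39 for succinate minus no carbon in the deletion strain and -0.59 in the wild type, so a gene whose TPM share did not move on succinate stood above most genes.

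The rule used means of log2(TPM + 1) over the 3 libraries of a group, for the 7938 genes whose mean over all 18 libraries reached 1 TPM. Of these genes, 754 were higher by at least 1 on cellobiose than without carbon in the wild type, and 338 of the 754 had a wild type difference under 0.5 between succinate and no carbon. On cellobiose, 164 of the 338 (48.5%) differed by less than 0.75 between the strains, while 158 were lower and 16 higher by 0.75 or more in the deletion strain. The 100 genes with the largest wild type difference between cellobiose and no carbon were taken. Every member therefore passed the filter on low values by construction.

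The values that chose the members are given as a description, with no test. The wild type difference between cellobiose and no carbon ran from 1.13 to 3.34 on the log2 scale over the members, with a median of 1.27. Between succinate and no carbon the wild type difference ran from -1.63 to 0.50, with a median of 0.17, and 62 members were at or above 0 (20.1% of all genes) and 7 at or below -1 (28.5% of all genes). On cellobiose the deletion strain minus the wild type ran from -0.75 to 0.70, with a median of -0.36, and 82 of the 100 members (40.7% of all genes) were lower in the deletion strain, where the median of all genes was 0.22. By these group means, "independent of Cbr1" thus included a lower level in the deletion strain for most members. The ranking favoured high wild type cellobiose values, which this strain difference subtracts. How far the ranking moved the strain difference was not tested. Over the members its median was -0.24 without wild type cellobiose replicate 3 and -0.61 after median-ratio scaling. The thresholds cut through a continuum. The last members inside the list, RTO4_15743 and RTO4_15205, had a cellobiose difference of 1.131 each, and the first genes outside it, RTO4_9751 and RTO4_15321, had 1.130 each. RTO4_15983 was inside with a succinate difference of 0.497 and RTO4_12279 outside with 0.503. RTO4_9924 was inside with a strain difference on cellobiose of -0.747 and RTO4_12475 outside with -0.755.

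**Figure D1:**
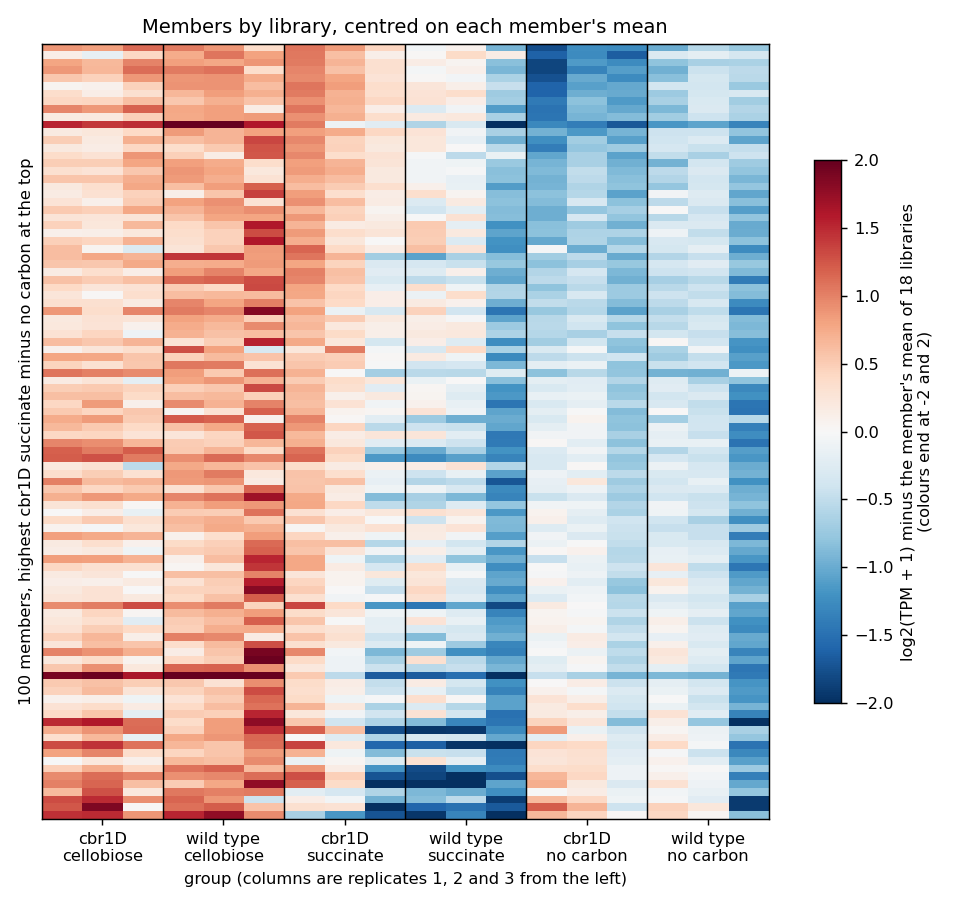
Log2(TPM + 1) of the 100 members (rows) in the 18 libraries (columns, grouped by strain and medium), centred on each member's mean over all libraries; colours end at -2 and 2. Rows run from the highest difference between succinate and no carbon in the deletion strain, 2.21, to the lowest, -1.55. In the 33 members called higher the group mean on succinate lies above the member's mean (red) in the deletion strain for 33 and in the wild type for 1. The call picked high deletion values on succinate and the rule capped the wild type ones, so these counts are no test of the strains.

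Most members were moderately abundant genes. On cellobiose their mean level ran from 4.52 to 6020.5 TPM in the deletion strain, with 3 members under 10 TPM and 26 at 100 TPM or more. In the wild type it ran from 4.37 to 4049 TPM, with 3 members under 10 TPM and 32 at 100 TPM or more. Over the members, the median level in a library was 50.1 ± 1.51 TPM in the deletion strain and 63.2 ± 7.96 TPM in the wild type on cellobiose (SD, n = 3 each). On succinate it was 44.4 ± 9.40 TPM in the deletion strain and 27.1 ± 8.15 TPM in the wild type. Without carbon it was 29.2 ± 4.73 TPM in the deletion strain and 26.2 ± 7.02 TPM in the wild type. By group mean, the deletion strain on succinate thus lay between the cellobiose groups and the other groups. Its libraries held 52.9, 46.0 and 34.3 TPM, against 33.6, 29.6 and 17.9 TPM in the wild type on succinate. These 2 groups did not overlap, replicate 3 being the lowest of each. The deletion libraries on cellobiose held 48.3, 50.8 and 51.0 TPM, so replicate 1 on succinate lay above them. Together the members took 1.85 ± 0.171% of all TPM in the deletion strain on cellobiose and 1.92 ± 0.0562% in the wild type. On succinate their share was 1.25 ± 0.393% in the deletion strain and 0.778 ± 0.260% in the wild type. Without carbon it was 1.06 ± 0.198% in the deletion strain and 0.792 ± 0.279% in the wild type. A large part of these shares came from RTO4_11990 and RTO4_9557. On cellobiose in the deletion strain they averaged 6020.5 and 3057 TPM, where all members together held 16738 to 20156 TPM in a library. Without carbon in that strain they averaged 3219 and 2017 TPM, where all members together held 8370 to 11883 TPM.

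**Figure D2:**
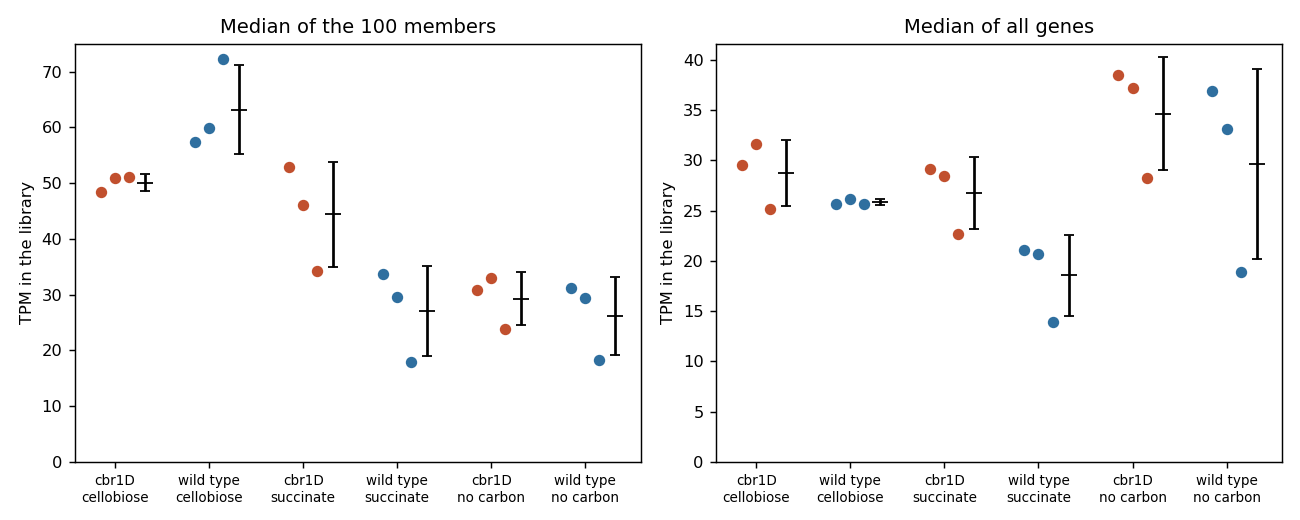
Median TPM in each library over the 100 members (left) and over all 8484 genes (right), by strain and medium; points are libraries, and bars are the mean ± SD of 3 libraries. On succinate the members' medians are 34.3 to 52.9 TPM in the deletion strain and 17.9 to 33.6 TPM in the wild type, while the median of all genes is also lower in the wild type on succinate.

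The deletion strain on succinate and the deletion strain without carbon entered the rule through the filter on mean level alone, so their comparison is the test available for these genes. With limma across all genes, a gene was called when its Benjamini-Hochberg adjusted p was under 0.05 and its log2 difference at least 1 in size. Of the 100 members 33 rose and 1 fell on succinate in the deletion strain, against 6.79% of all genes that rose and 21.9% that fell. The other 66 were not called, and 3 of them had an adjusted p under 0.05 with a positive difference under 1. The members' median difference was 0.61, while that of all genes tested was -0.39, and 97 of the 100 members lay above the median of all genes. Among the members called higher the difference ran from 1.00 to 2.21, with a median of 1.34. In 50 members all 3 deletion libraries on succinate lay above all 3 without carbon, which held for 13.1% of all genes. They lay below in 2 members, which held for 37.5% of all genes.

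Single libraries moved this count without ending it. It was 22 without deletion succinate replicate 1, the library with the highest member levels of its group, and 42 without replicate 3, the lowest. Over all 6 libraries of the comparison, left out in turn, between 22 and 42 members were called higher and 1 lower. After median-ratio scaling or quantile normalization, which bring the median of all genes close to 0, 48 members were called higher and 1 lower, against 10.6% and 11.7% of all genes called higher.

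**Figure D3:**
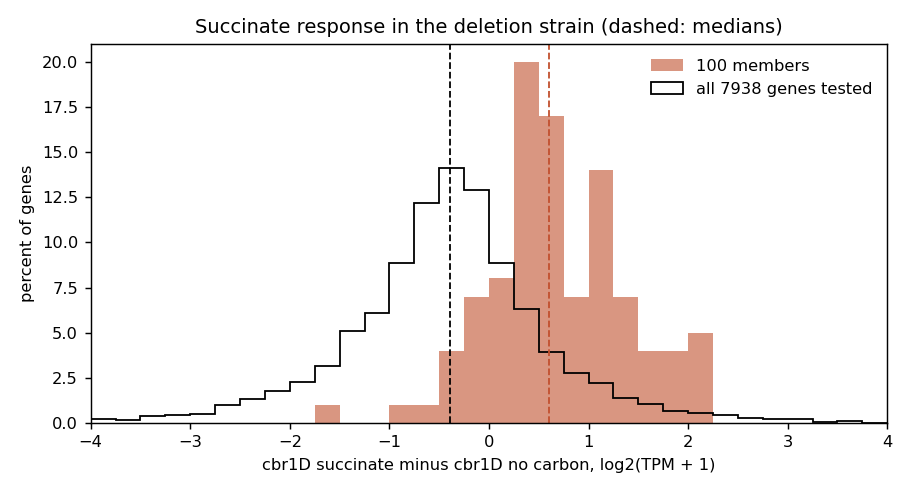
Distribution of the difference between succinate and no carbon in the deletion strain on the log2(TPM + 1) scale, in bins of 0.25, for the 100 members (filled) and all 7938 genes tested (outline); the vertical axis is the percent of each set. The members' median (red dashed line) is 0.61 and that of all genes (black dashed line) is -0.39; the horizontal axis ends at -4 and 4.

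Among the members that rose on succinate in the deletion strain, the largest changes were those of RTO4_16653 and RTO4_14994. On cellobiose, RTO4_16653 held 47.7, 45.8 and 56.7 TPM in the deletion strain, against 53.3, 47.8 and 32.99 TPM in the wild type. On succinate it held 54.1, 46.7 and 34.7 TPM in the deletion strain, against 24.5, 27.1 and 12.8 TPM in the wild type. Without carbon the values were 6.75, 10.1 and 10.02 TPM in the deletion strain and 12.2, 16.8 and 14.6 TPM in the wild type. The libraries of the deletion strain on succinate thus overlapped with the cellobiose libraries of both strains and lay above all of those without carbon. The difference in the deletion strain between succinate and no carbon was 2.21 ± 0.30 (SE; limma adjusted p = 1.88e-05), and the corresponding wild type difference, which the rule kept under 0.5, was 0.48. For RTO4_14994 the deletion strain held 34.6, 24.9 and 17.5 TPM on succinate, against 4.57, 6.14 and 4.45 TPM without carbon, a difference of 2.10 ± 0.28 (SE; limma adjusted p = 1.21e-05). Its wild type libraries held 16.3, 21.2 and 17.8 TPM on succinate, against 13.00, 13.8 and 12.4 TPM without carbon. RTO4_14994 was the member with the lowest level without carbon in the deletion strain relative to the wild type, with a difference of -1.23. Both genes were called under every alternative run, each library of the comparison left out included.

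RTO4_13489 was the member that fell on succinate in the deletion strain. On cellobiose, RTO4_13489 held 46.98, 48.2 and 31.3 TPM in the deletion strain, against 49.1, 58.8 and 32.5 TPM in the wild type. On succinate it held 10.1, 6.82 and 4.24 TPM in the deletion strain, against 3.53, 5.98 and 3.33 TPM in the wild type. Without carbon the values were 26.5, 22.4 and 16.7 TPM in the deletion strain and 22.2, 16.9 and 8.8 TPM in the wild type. In both strains the cellobiose libraries were the highest and the succinate libraries the lowest, with no overlap between media within a strain. The difference in the deletion strain between succinate and no carbon was -1.55 ± 0.36 (SE; limma adjusted p = 0.00222), and in the wild type it was -1.63. RTO4_8376 had the next lowest difference, -0.99 ± 0.63 (SE; limma adjusted p = 0.232), and was not called. Its deletion libraries held 52.2, 51.1 and 8.85 TPM on succinate, against 97.3, 67.4 and 31.1 TPM without carbon, so the groups overlapped.

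The 2 members with the largest wild type difference between cellobiose and no carbon differed from each other on succinate. On cellobiose, RTO4_9136 held 17.7, 18.6 and 14.5 TPM in the deletion strain, against 20.97, 23.9 and 24.2 TPM in the wild type. On succinate it held 6.26, 2.5 and 0.578 TPM in the deletion strain, against 0.591, 0.773 and 0.151 TPM in the wild type. Without carbon the values were 2.66, 2.21 and 1.63 TPM in the deletion strain and 1.69, 1.6 and 0.891 TPM in the wild type. RTO4_9136 was thus high on cellobiose alone, in both strains. On succinate the deletion libraries spread over a wide range around those without carbon, and the difference was 0.13 ± 0.38 (SE; limma adjusted p = 0.823). On cellobiose, RTO4_14307 held 39.2, 35.98 and 37.5 TPM in the deletion strain, against 58.4, 59.8 and 41.4 TPM in the wild type. On succinate it held 27.4, 11.9 and 10.8 TPM in the deletion strain, against 8.18, 10.3 and 2.19 TPM in the wild type. Without carbon the values were 4.68, 4.3 and 3.3 TPM in the deletion strain and 5.22, 5.71 and 4.56 TPM in the wild type. RTO4_14307 rose on succinate in the deletion strain, by 1.69 ± 0.39 (SE; limma adjusted p = 0.00214), to a level below that on cellobiose, and this call held under every alternative run.

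**Figure D4:**
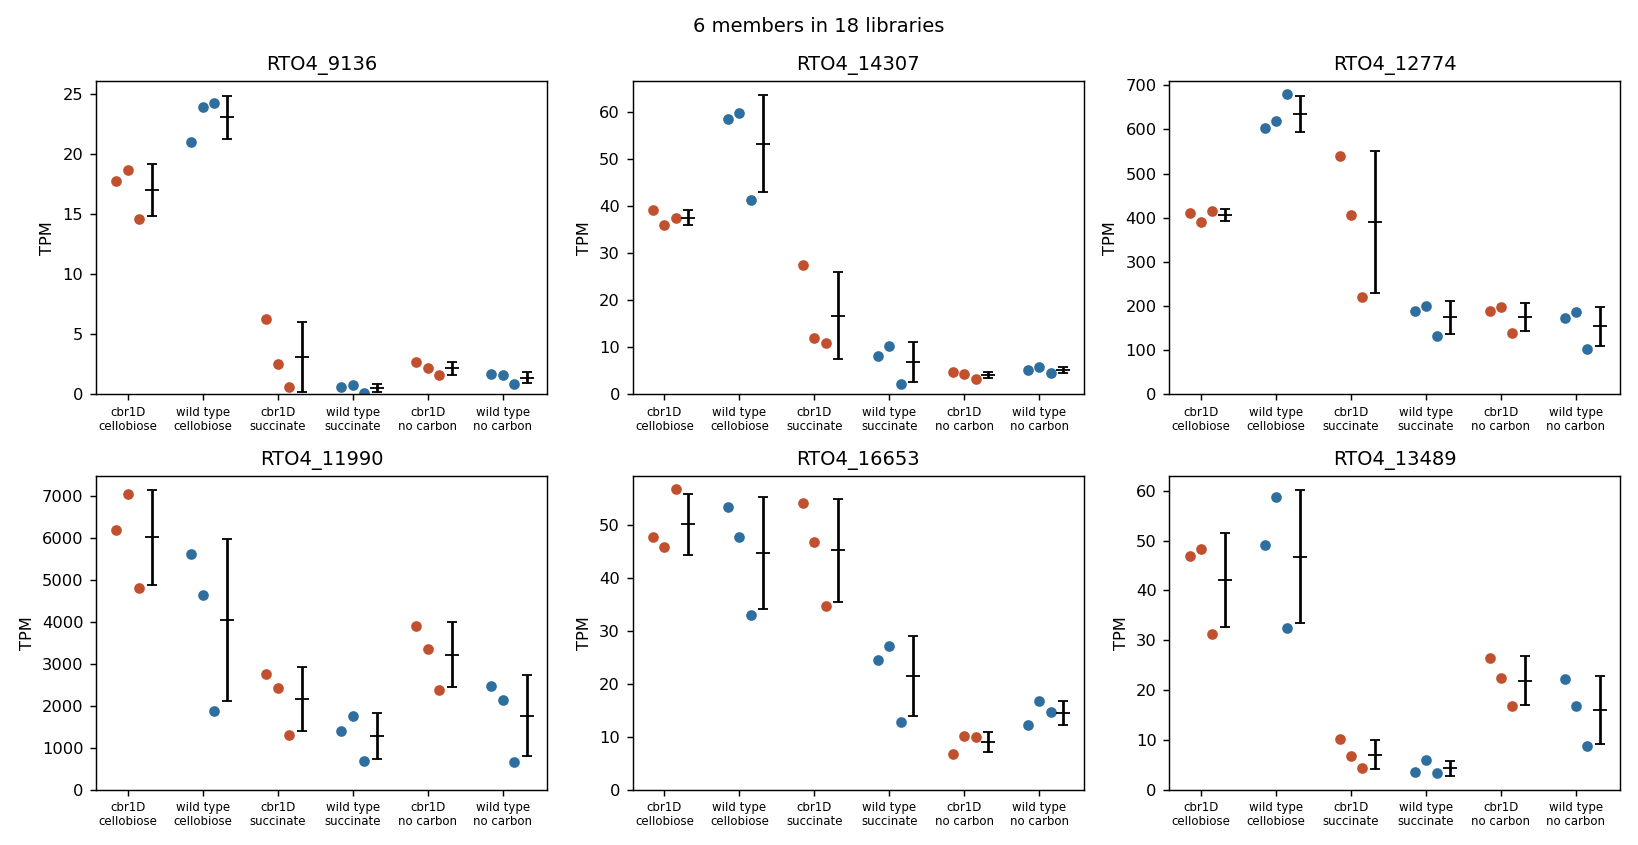
TPM of 6 members in each of the 18 libraries, on linear axes that start at 0; points are libraries by strain and medium, and bars are the mean ± SD of 3 libraries. RTO4_9136 is high on cellobiose alone, RTO4_13489 is highest on cellobiose, lowest on succinate and intermediate without carbon, and RTO4_16653 in the deletion strain is as high on succinate, with 34.7 to 54.1 TPM, as on cellobiose, with 45.8 to 56.7 TPM.

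Of the next 6 members in order of the wild type cellobiose difference, 2 rose on succinate in the deletion strain. RTO4_12774 held 541, 406 and 221 TPM on succinate in the deletion strain, against 189, 198 and 140.1 TPM without carbon, a rise of 1.06 ± 0.32 (SE; limma adjusted p = 0.013). RTO4_14256 held 424, 321 and 124 TPM on succinate, against 123, 140.0 and 99.5 TPM without carbon, in the same strain, a rise of 1.09 ± 0.35 (SE; limma adjusted p = 0.0186). Both calls were lost when single libraries of the deletion strain were left out. Without replicate 1 on succinate the difference was 0.78 (limma adjusted p = 0.0786) for RTO4_12774 and 0.73 (limma adjusted p = 0.116) for RTO4_14256, without replicate 2 on succinate 0.99 (limma adjusted p = 0.0468) for RTO4_12774 and 0.93 (limma adjusted p = 0.0785) for RTO4_14256, and without replicate 3 of the carbon-free libraries 0.91 (limma adjusted p = 0.0538) for RTO4_12774 and 0.96 (limma adjusted p = 0.0632) for RTO4_14256. In the fit of 6 libraries alone RTO4_14256 was not called either (1.09, limma adjusted p = 0.0643). On cellobiose RTO4_12774 averaged 406 ± 13.3 TPM in the deletion strain and 634 ± 40.8 TPM in the wild type, and RTO4_14256 averaged 324 ± 18.1 TPM in the deletion strain and 481 ± 106 TPM in the wild type (SD, n = 3 each). The other 4 of the 8 members with the largest wild type difference were not called. The difference in the deletion strain between succinate and no carbon was 0.92 ± 0.42 (SE; limma adjusted p = 0.0923) for RTO4_14754, 0.50 ± 0.34 (SE; limma adjusted p = 0.268) for RTO4_10504, 0.13 ± 0.31 (SE; limma adjusted p = 0.781) for RTO4_11982 and -0.10 ± 0.49 (SE; limma adjusted p = 0.897) for RTO4_8750. RTO4_14754 was called after median-ratio scaling, with a difference of 1.29, and after quantile normalization, with 1.44.

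The 4 members of highest level on cellobiose in the wild type, beyond those 8, were not called on succinate in the deletion strain. On cellobiose, RTO4_11990 held 6207, 7051 and 4803 TPM in the deletion strain, against 5615, 4649 and 1883 TPM in the wild type. On succinate it held 2767, 2429.8 and 1295 TPM in the deletion strain, against 1397, 1745 and 674 TPM in the wild type. Without carbon the values were 3913, 3367 and 2379 TPM in the deletion strain and 2478, 2144 and 664 TPM in the wild type. RTO4_11990 was thus more abundant in the deletion strain than in the wild type in every medium by group mean, with overlapping libraries in each medium. Its log2 difference between the strains was 0.70 on cellobiose and 1.05 without carbon, the highest of the members in both. In the deletion strain its succinate minus no carbon difference was -0.62 ± 0.51 (SE; limma adjusted p = 0.369). RTO4_9557 averaged 3057 ± 97.7 TPM in the deletion strain and 3232 ± 747 TPM in the wild type on cellobiose (SD, n = 3 each). Its difference between succinate and no carbon in the deletion strain was 0.10 ± 0.38 (SE; limma adjusted p = 0.863). For RTO4_10370 that difference was 0.91 ± 0.28 (SE; limma adjusted p = 0.0146), under the size of 1 that a call needs, and for RTO4_9798 it was -0.23 ± 0.36 (SE; limma adjusted p = 0.659). RTO4_10370 was called after median-ratio scaling, with 1.31, after quantile normalization, with 1.15, and without deletion succinate replicate 3, with 1.03 (limma adjusted p = 0.0166).

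The members called higher were also counted by their wild type succinate difference, a value the rule used, and the same ordering held for all genes. Of the 62 members at or above 0 in the wild type (succinate minus no carbon), 31 were called higher by the deletion strain comparison, against 14.4% of all genes from 0 to under 0.5, with a median difference over these members of 1.00. Of the 31 members between -1 and 0, 2 were called higher, against 0.907% of all genes in that range, with a median of 0.31. Of the 7 members at or below -1, 0 were called higher and 1 lower, against 0% and 67.9% of all genes there, with a median of -0.32. Whether the succinate response differed between the strains was tested by limma's interaction term over all genes. It called 0 of 7938 genes, and 459 had an unadjusted p under 0.05. The term called 1 gene with a pseudocount of 5 TPM, 7 without carbon-free wild type replicate 1 and 3 without wild type succinate replicate 3. For the members the wild type side of this term was set by the rule, so it is given as a description of the table only.

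In the deletion strain, cellobiose was set against each of the other media. The rule held the cellobiose level close to that of the wild type, so these differences are descriptions with no test. Cellobiose minus no carbon had a median of 0.90 over the members and ran from -0.01 to 2.93, against 1.27 in the wild type. It was at least 1 in 42 members, against 5.33% of all genes, and in 85 members all 3 cellobiose libraries lay above all 3 libraries without carbon, against 14.2% of all genes. Cellobiose minus succinate in the deletion strain had a median of 0.17, the same as the 0.17 of all genes, and ran from -0.56 to 2.46; the members' median was -0.01 after median-ratio scaling and 0.10 after quantile normalization. It was at least 1 in 12 members, or 12%, against 11.2% of all genes, so the members did not stand out by this count. In the wild type the same difference was at least 1 in 70 members, against 10.3% of all genes, but there the rule fixed its direction.

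The 12 members with a difference of at least 1 between cellobiose and succinate in the deletion strain were RTO4_9136, RTO4_14307, RTO4_8750, RTO4_16852, RTO4_13489, RTO4_11988, RTO4_15478, RTO4_8376, RTO4_8867, RTO4_16094, RTO4_11990 and RTO4_8788. They were chosen after their values were seen, by a threshold set for all members. In the wild type 10 of the 12 had less on succinate than without carbon, against 79.9% of all genes, a share near the background, and 5 of the 12 had a difference of -1 or less, against 28.5% of all genes. RTO4_15478, for example, held 39.2, 31.6 and 41.4 TPM on succinate in the wild type, against 154, 137 and 54.7 TPM without carbon. In the deletion strain it held 350.3, 199 and 42.6 TPM on succinate, against 227, 192 and 134 TPM without carbon, so that replicate 3 on succinate was near the wild type level and replicate 1 far above it. RTO4_8788 had the same arrangement, with 288, 129 and 36.8 TPM on succinate in the deletion strain and 35.2, 27.99 and 27.4 TPM in the wild type.

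Between the strains, the members were higher in the deletion strain on succinate in 100 of 100 cases by group mean, with a median log2 difference of 0.74, but 85.3% of all genes were also higher there, with a median of 0.47. The deletion libraries lay above the wild type libraries on succinate in 35 members, against 30.1% of all genes, a share near the background. Without carbon the members' median difference was 0.21, and that of all genes was 0.27. The members' median turned to -0.08 after median-ratio scaling, where that of all genes was -0.02. After quantile normalization these medians were -0.05 and 0.06. On succinate 81 members were higher in the deletion strain after median-ratio scaling, with a median of 0.25 against -0.00015 for all genes. After quantile normalization 87 members were higher, with a median of 0.29 against 0.04 for all genes. The share of all genes above 0 was not counted after scaling. These differences share the wild type libraries with the rule and are given with no test.

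Membership depended on how the libraries were scaled. Median-ratio scaling brings the median of all genes to -0.02 for succinate minus no carbon in the wild type. The members' median then became 0.75, where it was 0.17 in TPM, and 26 of the 100 members still met the rule. Of the members, 71 then had a wild type succinate difference of 0.5 or more, and 26 differed between the strains on cellobiose by 0.75 or more. After quantile normalization 28 still met the rule. Under both scalings 23 did, under neither 69. In TPM too, 89 of the 100 members lay above the median of all genes in this wild type difference.

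**Figure D5:**
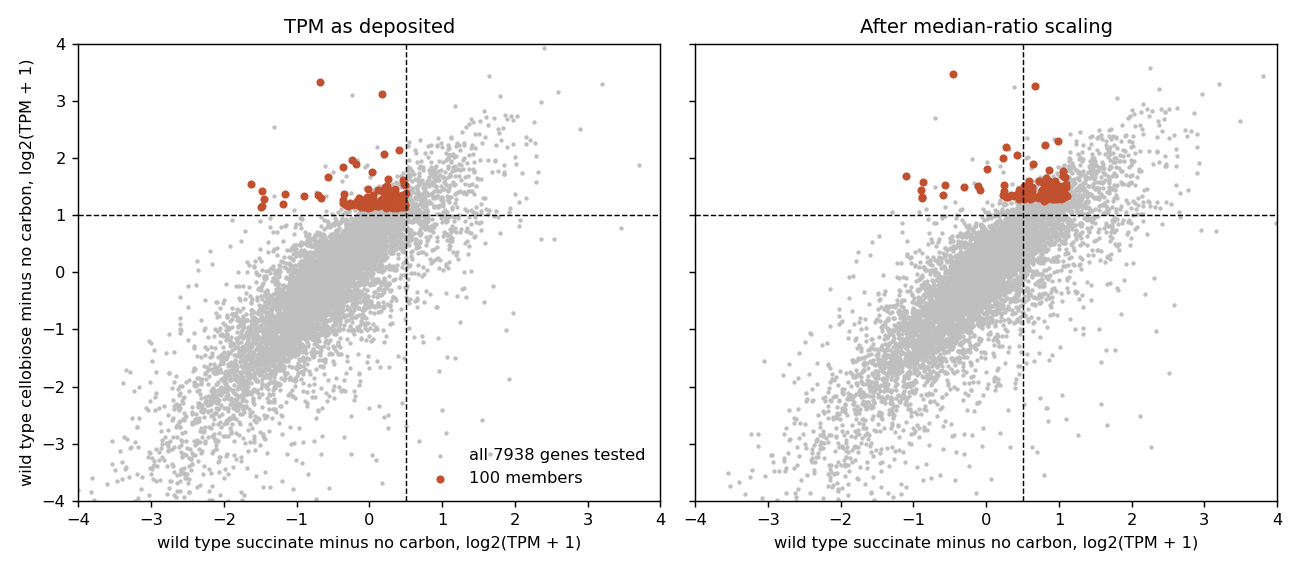
Wild type differences on the log2(TPM + 1) scale, succinate minus no carbon (horizontal) and cellobiose minus no carbon (vertical), for the 100 members (red) and all 7938 genes tested (grey), in TPM as deposited (left) and after median-ratio scaling (right). Dashed lines are the rule's limits of 0.5 and 1, and both axes end at -4 and 4. After scaling 71 members lie at or beyond the limit of 0.5, where the share of all genes was not counted.

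Single libraries also moved the list. Without wild type succinate replicate 3, 96 genes met the rule and 54 of the 100 members were among them. Without carbon-free wild type replicate 3 these numbers were 80 and 55, and without wild type cellobiose replicate 3 they were 153 and 67. With each of the 12 libraries that the rule reads left out in turn, 20 members met it every time. The rule was also applied to 2 replicates of every group and the members so chosen were read in the third, which is a readout the rule did not use, with 1 library a group and no test. With replicate 1 left out, 11 of the 100 genes chosen met all 3 conditions in replicate 1, against 0.693% of all genes. With replicate 2 left out it was 28 of 100, against 0.831%, and with replicate 3 left out 20 of 50, against 11.1%. The cellobiose difference in the left-out wild type libraries was at least 1 for 37, 51 and 30 of these genes, against 7.61%, 7.26% and 29.6% of all genes, and its median was 0.65, 1.01 and 1.19. The succinate difference there was under 0.5 for 69 of 100, 80 of 100 and 49 of 50 of these genes, against 88.9%, 89.2% and 94.1% of all genes, so that with replicate 1 or 2 left out the chosen genes met this condition less often than all genes by count. The strain difference on cellobiose was within 0.75 for 91 of 100, 89 of 100 and 34 of 50, against 52.9%, 57.2% and 48.9% of all genes. Its median over the chosen genes in the left-out libraries was -0.03, -0.20 and 0.08.

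Under all 20 alternative settings of scaling, pseudocount, filter and libraries, 7 members met the rule. They were RTO4_9136, RTO4_10504, RTO4_16852, RTO4_13489, RTO4_13382, RTO4_8867 and RTO4_15951, named after their values were seen. In the wild type all 7 had less on succinate than without carbon, with log2 differences from -1.63 to -0.36, where 79.9% of all genes were below 0. The settings include median-ratio scaling and quantile normalization, which raised the members' median of this difference from 0.17 to 0.75 and 0.80. The selection of the 7 thus itself favoured low values of it. In the deletion strain 1 of the 7, RTO4_13489, fell on succinate and the other 6 were not called, with differences from -0.39 to 0.61. Of the 69 members that met the rule under neither scaling, 32 were called higher on succinate in the deletion strain, against 6.79% of all genes, with a median difference of 0.92. For the 23 that met it under both scalings, 0 were called higher and the median was 0.13. The wild type succinate difference of these 23 had a median of -0.57. Of all genes between -1 and 0 in that difference, 0.907% were called higher, so 0 of 23 was near the background. Of all genes from 0 to under 0.5 in it, 14.4% were called higher. This split rests on the values that the rule uses, the wild type succinate difference among them, and is a description. On cellobiose RTO4_16852 averaged 74.2 ± 6.16 TPM in the deletion strain and 66.1 ± 4.95 TPM in the wild type. On succinate it averaged 43.1 ± 29.6 TPM in the deletion strain and 13.3 ± 1.17 TPM in the wild type, and without carbon 23.9 ± 4.94 TPM in the deletion strain and 20.8 ± 6.15 TPM in the wild type (SD, n = 3 each).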

How the data were processed

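Poly-A enriched mRNA was sequenced from 18 libraries, 3 in each of 6 groups, and the authors deposited TPM values for 8484 genes, each column summing to 1000000. Per the submitters' processing notes, Salmon 1.10.0 was used; its settings are not stated there, and a genome build or annotation is not given in the sources used here. Read depth cannot be had from TPM, and no interval that depends on it is printed. Library names tied columns to samples, with 0 columns left over. The labels' triplicates are the replicates behind every SD and p.

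Values were transformed to log2(TPM + 1), which understates the change of low genes. Group means over all 18 libraries were fitted with limma 3.58.1 in R 4.3.3 (empirical Bayes with an intensity trend) for the 7938 genes averaging 1 TPM or more, and p-values were adjusted over all of them. With 3 libraries against 3, an exact permutation test cannot give a p under 0.1. Named members are the 8 with the largest wild type cellobiose difference, the next 4 by level, the 2 highest and 2 lowest in the tested comparison and the last 2 of the list; others are marked as chosen after their values were seen. The members and lists were chosen with earlier results of these data known. Lists of genes by function need names and were not applied. Alternatives were pseudocounts of 0.1 and 5 TPM, no filter, median-ratio scaling, quantile normalization, a replicate block, a fit of 6 libraries alone and leaving out libraries; a block in the fit of 6 libraries was added after seeing the data.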

Additional observations from a re-analysis of the deposited data

How the results depend on the processing

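The count of members called higher on succinate in the deletion strain stayed within 1.5 times 33 under all alternatives run, from 22 to 48, and the count called lower was 1 in each. Over all genes, 539 were called higher and 1742 lower; these became 842 and 987 after median-ratio scaling and 927 and 938 after quantile normalization, and ran from 450 to 548 and from 1378 to 2017 with a library left out. The 164 genes that met the rule became 71 and 86 under these scalings, with 26 and 28 of the members among them, and ran from 50 to 400 genes, and from 30 to 100 members, with libraries left out; the lowest and highest gene counts came without replicate 3 and without replicate 1 of every group. The cause of these shifts was not tested. With the replicate number as a block over 18 libraries, 34 members were called higher and 1 lower, as in the fit of 6 libraries with the block. The numbers were not taken to pair the libraries: deviations of same-numbered succinate and carbon-free deletion libraries had r = 0.25, -0.04 and 0.29, and replicate 2 on succinate did not correlate best with its own number.

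The succinate minus no carbon difference in the deletion strain changed sign under some alternative for 5 named members, of which none was called in any of them. RTO4_9136 ran from -0.42 to 0.68, RTO4_8750 from -0.50 to 0.16, RTO4_11982 from -0.028 to 0.29 and RTO4_9557 from -0.078 to 0.34 with a library left out. RTO4_8750 was at 0.23 after median-ratio scaling and 0.71 after quantile normalization, RTO4_9557 at -0.44 after quantile normalization and RTO4_9798 at 0.17 after median-ratio scaling. The unknown depth limits what can be said of the least abundant members.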

Other observations

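Of the 100 members, 7 had identifiers whose numbers adjoin that of another member, in 4 pairs: RTO4_8804 and RTO4_8805, RTO4_11278 and RTO4_11279, and the run of RTO4_14285, RTO4_14286 and RTO4_14287. No annotation of strain IFO0880 was used here, so whether adjoining numbers mean neighbouring genes was not tested. How often numbers adjoin in other lists of 100 genes was not counted, so these pairs have no background. All 7 members with adjoining numbers were called higher on succinate in the deletion strain, against 33 of all 100 members and 6.79% of all genes. This was noticed after their values were seen. The wild type succinate differences of these 7 ran from -0.08 to 0.29. Of the 62 members at or above 0 in that difference 31 were called higher, and of all genes from 0 to under 0.5 in it 14.4%. On succinate RTO4_14285 held 12.04, 7.53 and 7.2 TPM in the deletion strain, against 2.25, 3.28 and 2.18 TPM without carbon in the same strain (difference 1.45 ± 0.30 (SE; limma adjusted p = 0.000934)). RTO4_14286 held 38.3, 26.7 and 22.9 TPM on succinate, against 7.68, 11.5 and 8.59 TPM without carbon (1.55 ± 0.33 (SE; limma adjusted p = 0.0013)). RTO4_14287 held 39.2, 36.5 and 32.1 TPM on succinate, against 12.8, 16.3 and 14.1 TPM without carbon (1.26 ± 0.30 (SE; limma adjusted p = 0.00291)). In each of the 3 genes the libraries on succinate all lay above those without carbon.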
